A study of Homo sapiens with 31 samples.

Results

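The response of Caco-2 cells on Transwell inserts to zinc oxide (ZnO) nanomaterial was taken from 8 of the 31 arrays of the series, chosen by their labels: 4 Transwell ZnO arrays and 4 Transwell ZnO-control arrays. Caco-2 (HTB-37) cells come from a human colorectal adenocarcinoma, differentiate towards enterocytes once confluent, and were here used at passage 29 to 45. The cells stood without flow on porous inserts for 21 days, and for 6 h the medium above them was replaced with 500 µL of suspension. ZnO arrays came from cells given 10 µg/mL ZnO, and ZnO-control arrays from cells given the dispersion solution in the same medium without metal. A TiO2 set on the same kind of insert, with 3 arrays of cells given 50 µg/mL TiO2 and 4 with a metal-free dispersion medium of their own (TiO2-control), shared the estimate of the spread. Cells given 80 µg/mL ZnO in a microfluidic gut-on-chip, with 4 arrays each of ZnO and control, are used for one comparison. The chip cells were kept under flow, at 100 µL/h. The submitters modelled the doses to give equal deposited amounts in both systems. The labels do not say whether the arrays of a group came from separate cultures, so p-values measure only the spread between these samples.

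Zinc is buffered inside cells by metallothioneins, small cysteine-rich proteins that bind it, and is moved across membranes by the SLC30 (ZnT) exporters, which lower cytosolic zinc, and the SLC39 (ZIP) importers, which raise it. The transcription factor MTF1 senses free zinc through its zinc fingers and binds metal response elements in the promoters of metallothionein genes and of SLC30A1, the exporter of the plasma membrane. SLC39A10 is known as a gene that MTF1 represses when zinc is high. In the intestine these genes set how much dietary zinc enters the enterocyte and how much is passed on to the blood.

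The start regions of 5 zinc genes are shown because the results below turn on these genes and their close relatives. The windows are from RefSeq (GRCh38.p14) and run from 250 bases before to 50 bases after the annotated start, 5′ to 3′ on the strand of the gene. Capitals mark matches to the core of the metal response element, searched as TGCACNC or TGCGCNC on both strands, so that a match on the opposite strand reads GNGTGCA or GNGCGCA. MT2A (chr16:56608334-56608633, plus strand) and MT1X (chr16:56682220-56682519, plus strand) encode metallothioneins. SLC30A2 (chr1:26046069-26046368, minus strand) encodes a zinc transporter of vesicles, SLC30A1 (chr1:211579112-211579411, minus strand) the plasma membrane exporter, and SLC39A10 (chr2:195656708-195657007, plus strand) a plasma membrane importer.
MT2A: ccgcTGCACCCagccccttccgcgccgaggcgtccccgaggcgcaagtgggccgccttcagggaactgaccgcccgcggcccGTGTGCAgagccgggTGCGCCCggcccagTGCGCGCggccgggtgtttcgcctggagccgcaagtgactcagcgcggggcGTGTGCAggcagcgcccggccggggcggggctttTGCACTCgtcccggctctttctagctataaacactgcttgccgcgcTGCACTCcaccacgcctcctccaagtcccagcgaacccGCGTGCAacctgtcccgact
MT1X: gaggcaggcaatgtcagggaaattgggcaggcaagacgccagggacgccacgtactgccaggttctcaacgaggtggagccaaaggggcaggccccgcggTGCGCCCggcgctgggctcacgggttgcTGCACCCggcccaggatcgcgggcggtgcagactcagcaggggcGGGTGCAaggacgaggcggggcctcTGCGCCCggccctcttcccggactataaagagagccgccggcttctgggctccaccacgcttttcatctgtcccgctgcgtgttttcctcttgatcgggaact
SLC30A2: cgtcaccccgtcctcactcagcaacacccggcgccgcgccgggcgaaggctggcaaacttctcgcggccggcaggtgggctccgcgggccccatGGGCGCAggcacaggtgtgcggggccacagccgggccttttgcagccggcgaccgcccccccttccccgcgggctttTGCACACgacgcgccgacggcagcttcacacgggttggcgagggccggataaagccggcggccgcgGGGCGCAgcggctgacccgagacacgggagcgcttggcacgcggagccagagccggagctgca
SLC30A1: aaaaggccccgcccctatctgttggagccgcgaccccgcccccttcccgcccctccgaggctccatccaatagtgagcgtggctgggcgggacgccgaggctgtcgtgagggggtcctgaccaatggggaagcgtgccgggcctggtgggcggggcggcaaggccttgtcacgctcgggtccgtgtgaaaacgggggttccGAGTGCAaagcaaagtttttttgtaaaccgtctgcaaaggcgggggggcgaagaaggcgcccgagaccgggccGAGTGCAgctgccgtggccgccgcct
SLC39A10: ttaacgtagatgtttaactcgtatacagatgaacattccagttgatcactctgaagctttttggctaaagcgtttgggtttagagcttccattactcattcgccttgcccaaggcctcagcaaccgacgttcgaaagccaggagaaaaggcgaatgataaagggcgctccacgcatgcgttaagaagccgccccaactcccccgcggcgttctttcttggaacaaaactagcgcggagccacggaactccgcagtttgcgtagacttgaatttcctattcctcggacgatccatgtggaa

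The MT2A window held 8 matches, that of MT1X 4, that of SLC30A2 3, that of SLC30A1 2 and that of SLC39A10 0. At least 1 match was found in 29.6% of all 35116 windows given, and 2.30% 3 or more. Among the 15489 windows of genes measured here, these shares were 34.3% and 2.83%. Each of the 5 metallothionein windows given held 3 or more, against 1 of 10 windows of zinc exporters and MTF1, and 0 of 12 of zinc importers. The metallothionein windows were those of MT2A, MT1H, MT1X, MT1B and MT4, and none was given for MT1G, MT1M, MT1F, MT1E or MT3. The log2 differences of the former, ZnO minus ZnO-control, were 0.51, 0.70, 0.39, 0.44 and -0.35. A match is a run of letters and not a shown binding site.

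The values were on the log2 scale after RMA normalisation, and differences below are log2 differences, ZnO minus ZnO-control, with standard errors from limma. Over 22395 genes, 0 passed at a Benjamini-Hochberg adjusted p below 0.05 (0% called), and the smallest adjusted p was 0.0639. At an unadjusted p below 0.05 there were 735 genes higher after ZnO (3.28%) and 741 lower (3.31%). In 518 genes (2.31%) every ZnO array lay above every control array, and in 371 (1.66%) every ZnO array lay below. With a prior that lets the spread depend on signal level, a listed alternative of the same limma fit, 8 genes passed (0.0357%). These were SLC30A1 and GPRC5A (adjusted p = 0.0097 each), SLC30A2 and ID1 (0.0248 each), MT1G (0.0292), EGR1 (0.0357), and the small-RNA features RN5S513 (0.0292) and MIR4328 (0.0267). MIR4328 read lower after ZnO, at -0.82 (rank 2 by p in the planned fit), and the others read higher. It did not lie above the array medians in either group and so is not among the leading genes below. Without ZnO replicate 2 that alternative called 0 genes, and without any other single array of the set it called 2 to 7. Where a gene is said below to have passed with the intensity trend, it is one of these 8.

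**Figure D1:**
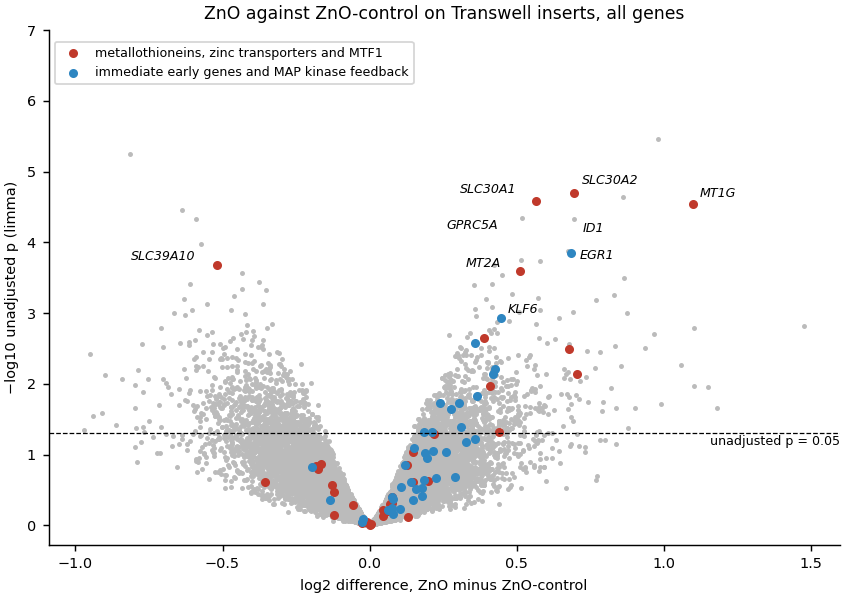
Each grey point is 1 of 22395 genes, with the log2 difference (ZnO minus ZnO-control, Transwell inserts) on the x axis and −log10 of the unadjusted limma p on the y axis. Red points are measured metallothioneins, zinc transporters and MTF1, blue points are immediate early and MAP kinase feedback genes, and the dashed line marks an unadjusted p of 0.05. MT1G at 1.10, SLC30A2 at 0.70, SLC30A1 at 0.57 and SLC39A10 at -0.52 stand near the top of the plot.

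The arrays of the ZnO set correlated with each other at 0.978 to 0.986, and array medians on the Transwell inserts lay between 3.26 and 3.32. Of 14 epithelial markers 13 were measured and all lay above the array medians, the lowest at 3.81 to 4.42 in the ZnO arrays and 3.74 to 4.43 in the control arrays. KRT8 and KRT18, keratins of simple epithelia, differed by 0.68 ± 0.25 and 0.29 ± 0.10 (unadjusted p = 0.015 and 0.014), and control replicate 1 read lowest for KRT8, at 4.61. Without that array the KRT8 difference was 0.36. Of 18 markers of immune, endothelial and stromal cells 14 were measured, and 7 or 8 of them lay below the array median on each array. Their mean was 3.95 to 4.12 in ZnO arrays and 4.08 to 4.18 in control arrays. In a whole-culture sample a change in the number of cells and a change in RNA per cell cannot be told apart.

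Metallothioneins as a group read higher after ZnO. Of 10 measured members 8 had a difference above 0, against 50.0% of all genes, with a median of 0.42, against -0.00 over all genes. At an unadjusted p below 0.05, 7 were higher and 0 lower, against 3.28% and 3.31% of all genes. In 4 members all ZnO arrays lay above all controls, against 2.31% of all genes. MT1G passed with the intensity trend, and no member passed in the planned fit. Since the paralogs share most of their sequence, a probe may bind several of them, and the value of any single member is uncertain.

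MT1G, a metallothionein of epithelial cells, read 6.91, 6.86, 7.33 and 7.17 in the ZnO arrays and 5.74, 5.91, 6.37 and 5.86 in the control arrays. The lowest ZnO array lay above the highest control array, although control replicate 3 was well above the other controls. The difference was 1.10 ± 0.18, or 2.14-fold (adjusted p = 0.105, rank 6 of all genes by p), with a 95% interval of 0.71 to 1.49. It stayed between 1.01 and 1.23 when any 1 array of the set was left out.

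MT2A, the broadly expressed metallothionein, read 8.19, 8.02, 8.10 and 8.08 after ZnO and 7.63, 7.73, 7.67 and 7.31 in control medium. The ZnO arrays lay within a narrow range above all controls. The difference was 0.51 ± 0.11, 1.42-fold (adjusted p = 0.314). For MT1X the values were 11.31, 11.39, 11.39 and 11.19 after ZnO and 11.08, 10.97, 10.99 and 10.69 in control medium, again without overlap, a difference of 0.39 ± 0.10 (adjusted p = 0.651).

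MT1H read 6.36, 6.15, 5.90 and 5.75 after ZnO and 5.44, 5.40, 5.52 and 4.98 in control medium, also without overlap (0.70 ± 0.23, adjusted p = 0.688). The groups overlapped for MT1F, at 10.47 to 10.93 after ZnO and 10.26 to 10.60 in control medium (0.41 ± 0.14), and for MT1M, at 4.11 to 4.47 after ZnO and 3.09 to 4.15 in control medium (0.68 ± 0.19). The remaining members were near or below the array medians or scattered widely. MT1B (0.44 ± 0.20, and 0.26 without ZnO replicate 3 or 0.29 without control replicate 4) and MT3 (-0.02 ± 0.14) read below the highest array median in both groups. MT1E differed by 0.13 ± 0.41, averaging 4.05 ± 0.76 after ZnO and 3.92 ± 0.52 in control medium (SD, n = 4). MT4, the metallothionein of stratified epithelia, differed by -0.35 ± 0.29.

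**Figure D2:**
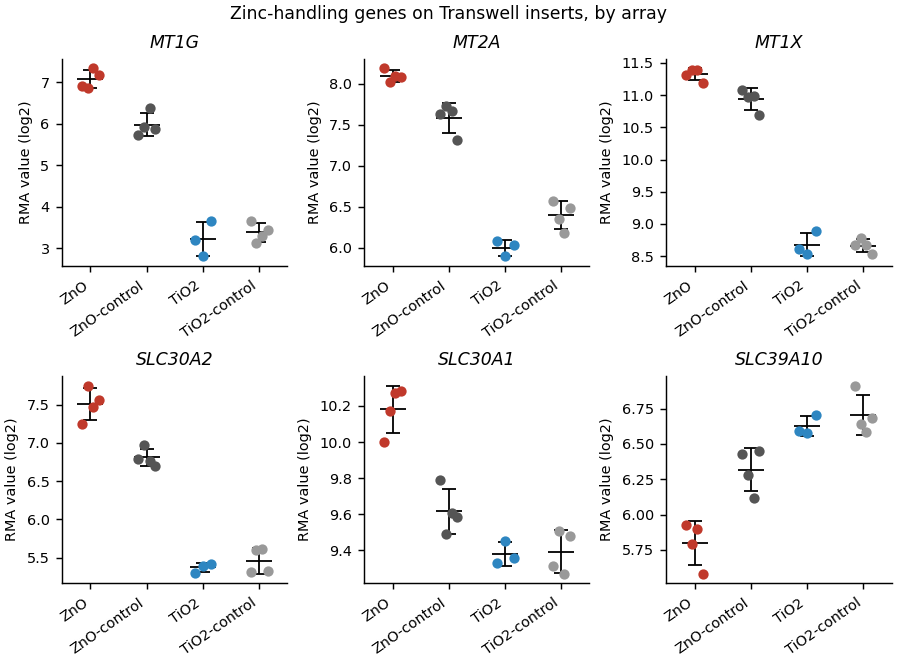
RMA value (log2) of 6 zinc-handling genes on each Transwell array, in 4 groups (ZnO, ZnO-control, TiO2, TiO2-control); points are arrays, and bars give the mean and SD. MT1G reads 6.86 to 7.33 after ZnO and 5.74 to 6.37 in ZnO-control, the SLC30 exporters likewise lie higher after ZnO, and SLC39A10 lies lower, while both groups of the TiO2 set read at another level for the metallothioneins and SLC30A2.

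Of the 11 measured zinc exporters and MTF1, 2 were higher at an unadjusted p below 0.05 and 0 lower, against 3.28% and 3.31% of all genes, and both of these passed with the intensity trend. SLC30A1, which exports zinc at the plasma membrane, read 10.00, 10.17, 10.27 and 10.28 after ZnO and 9.79, 9.49, 9.61 and 9.58 in control medium. All ZnO arrays lay above all controls, and replicate 1 of each group stood nearest to the other group. The difference was 0.57 ± 0.09, 1.48-fold (adjusted p = 0.105). SLC30A2, which loads zinc into vesicles, read 7.25, 7.75, 7.47 and 7.56 after ZnO and 6.79, 6.97, 6.77 and 6.70 in control medium. The groups did not overlap, and the difference of 0.70 ± 0.11, 1.62-fold, had rank 3 of all genes by p (adjusted p = 0.105).

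MTF1 itself read 7.79, 7.72, 7.92 and 7.76 after ZnO and 7.48, 7.61, 7.64 and 7.60 in control medium. The ranges did not overlap, but the gap was small against the spread (0.22 ± 0.10, unadjusted p = 0.052). The other 8 members, SLC30A3 to SLC30A10, ran from -0.18 to 0.15 and each had an interval that included 0. For SLC30A6, a transporter of the Golgi, the interval was -0.17 to 0.17.

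Among 14 zinc importers 1 was lower at an unadjusted p below 0.05 and 0 higher. It was SLC39A10, at 5.93, 5.79, 5.90 and 5.58 after ZnO and 6.43, 6.28, 6.12 and 6.45 in control medium. Every ZnO array lay below every control array, and the difference was -0.52 ± 0.11 (adjusted p = 0.279, rank 16). SLC39A14, an importer of zinc and manganese, also had groups that did not overlap, at 10.72 to 10.86 after ZnO and 10.55 to 10.72 in control medium, with a difference of only 0.13 ± 0.08. SLC39A4, the importer of the apical enterocyte membrane, differed by -0.18 ± 0.12 with overlapping groups. Over the whole list the median was 0.02 and 8 of 14 differences were above 0.

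The genes with the smallest p that lay above the array medians in at least 1 group were 12 higher and 8 lower genes, and of these SLC30A2, SLC30A1, MT1G and SLC39A10 were zinc genes. GPRC5A, a retinoic acid-induced orphan receptor of epithelia, read 10.10, 10.30, 10.09 and 10.09 after ZnO and 9.57, 9.65, 9.54 and 9.75 in control medium. The groups were apart, with a difference of 0.52 ± 0.09 (adjusted p = 0.105). ID1, a helix-loop-helix inhibitor that responds to BMP signals, read 8.03, 8.24, 8.06 and 8.30 after ZnO and 7.28, 7.45, 7.48 and 7.65 in control medium. It too was without overlap, and the difference was 0.69 ± 0.12, close in size to that of SLC30A2 (adjusted p = 0.105). GPRC5A and ID1 both passed with the intensity trend.

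Of the genes of this set, RN5S513 and AKR1C4 had control means below the array medians, where a gene is not shown to be above background. RN5S513, a 5S ribosomal RNA pseudogene with many near-identical copies, had the smallest p, at 3.66 to 4.12 after ZnO and 2.51 to 3.22 in control medium (0.98 ± 0.14, adjusted p = 0.0639). All its control arrays lay below the array medians, so the size of that difference and its rank are uncertain. AKR1C4, a steroid-reducing enzyme with close paralogs, read 3.70 to 4.15 after ZnO and 2.81 to 3.34 in control medium (0.86 ± 0.14). Its control mean also lay below the array medians and paralogs can share probes, so its value is uncertain on both counts. Clear of the array medians in both groups were LOC401357 (0.68), ZNF554, a zinc finger gene (0.58), CEP295NL (0.52) and MBD1, a methyl-CpG binding protein (0.42). MBD1 was the tightest of them, at 6.99 to 7.04 after ZnO and 6.50 to 6.68 in control medium. The LOC401357 difference depended on the processing. It ran from 0.10 to 0.69 over the alternatives that kept all arrays of the set, so its size is uncertain.

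On the lower side CARNS1, the carnosine synthase, read 3.63, 3.37, 3.54 and 3.62 after ZnO and 3.96, 4.03, 4.35 and 4.36 in control medium (-0.64 ± 0.11, adjusted p = 0.105). QPCTL, a Golgi glutaminyl cyclase, read 5.76 to 5.99 after ZnO and 6.17 to 6.36 in control medium (-0.38 ± 0.08). P2RY6, a receptor for extracellular UDP, read 4.82 to 5.03 after ZnO and 5.13 to 5.41 in control medium (-0.36 ± 0.09). The others were RIIAD1 (-0.63), GPR37L1, an orphan receptor (-0.46), REL-DT (-0.43), whose ZnO arrays lay below the array medians, and PRDM11 (-0.35). Over the alternatives that kept all arrays of the set, the PRDM11 difference ran from -0.40 to -0.08. Its response to TiO2 on the inserts was of like size, at -0.37 ± 0.09. In each of these 8 lower genes, SLC39A10 included, the groups did not overlap, against 1.66% of all genes. That is largely given by the choice of the smallest p in these same arrays.

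Immediate early genes, which encode transcription factors that need no new protein to be induced, mostly read higher after ZnO. Of 24 measured members 20 had a difference above 0, and the median was 0.18. At an unadjusted p below 0.05, 7 were higher and 0 lower, while among all genes above the array medians 3.96% were higher and 3.13% lower. In 4 members all ZnO arrays lay above all controls, against 2.31% of all genes. EGR1, a zinc finger factor downstream of ERK signalling, passed with the intensity trend, and 0 members passed in the planned fit.

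EGR1 read 8.11, 8.37, 7.95 and 8.43 after ZnO and 7.65, 7.34, 7.66 and 7.48 in control medium. The groups were apart, with ZnO replicates 2 and 4 highest, and the difference was 0.68 ± 0.13, 1.61-fold (adjusted p = 0.244). KLF6, a Krüppel-like factor, read 8.45, 8.73, 8.49 and 9.01 after ZnO and 8.21, 8.12, 8.30 and 8.27 in control medium. ZnO replicates 2 and 4 were again the highest, and the difference was 0.44 ± 0.11 (adjusted p = 0.528). MYC, the growth-promoting factor, read 8.51, 8.57, 8.39 and 8.54 after ZnO and 8.15, 8.09, 8.15 and 8.17 in control medium. Its groups were apart by more than the range of the controls (0.36 ± 0.10, adjusted p = 0.663).

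JUNB, an AP-1 subunit, overlapped between the groups, at 6.85, 7.17, 6.82 and 7.36 after ZnO and 6.85, 6.57, 6.52 and 6.60 in control medium (0.42 ± 0.13). FOS, its partner in AP-1, differed by only 0.18 with groups that did not overlap. ATF3, NR4A3 and FOSL1, other induced factors, differed by 0.22, 0.33 and 0.36, each with an interval that included 0. The members below 0 were IER5 at -0.20, EGR3 at -0.13, KLF2 at -0.03 and FOSL2 at -0.02.

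The phosphatases and inhibitors that are induced by MAP kinase signalling and dampen it lay above 0 in 15 of 15 measured members, with a median of 0.19 and a range of 0.06 to 0.43. Of these 5 were higher at an unadjusted p below 0.05 and 0 lower, against 3.28% and 3.31% of all genes, and 0 passed after adjustment. SPRY4, a feedback inhibitor of receptor tyrosine kinase signalling, read 6.24, 6.67, 6.74 and 6.74 after ZnO and 5.87, 6.27, 6.26 and 6.27 in control medium. Replicate 1 was lowest in both groups, and its ZnO value kept the groups from separating (0.43 ± 0.13). DUSP6, the cytosolic ERK phosphatase, read 7.08 to 7.57 after ZnO and 6.81 to 7.28 in control medium (0.37 ± 0.13). DUSP1, a nuclear MAP kinase phosphatase, differed by 0.28 ± 0.11, with control replicate 3 at 8.62 inside the ZnO range. SPRY2 was 1 of 2 members without overlap, where 2.31% of all genes had every ZnO array above every control, at 6.47 to 6.64 after ZnO and 6.18 to 6.38 in control medium (0.24 ± 0.09).

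YAP is a co-activator that responds to cell shape and tension. Its targets and other mechanosensitive genes were above 0 in 16 of 21 measured members, with a median of 0.10. Of these 6 were higher and 0 lower at an unadjusted p below 0.05, against 3.28% and 3.31% of all genes. ANKRD1, an ankyrin-repeat protein and a standard YAP target, read 6.65, 6.78, 6.22 and 7.26 after ZnO and 6.02, 6.18, 5.98 and 6.02 in control medium. The groups were apart, but ZnO replicate 3 lay next to the controls and replicate 4 far above (0.68 ± 0.19, adjusted p = 0.663). CCN2, a matricellular protein, read 6.49 to 6.76 after ZnO and 5.98 to 6.46 in control medium (0.34 ± 0.11). LATS2, the kinase that inhibits YAP and is also its target, read 7.85 to 8.08 after ZnO and 7.56 to 7.73 in control medium (0.30 ± 0.09). CCN1, the other widely used matricellular target, differed by 0.21 with an interval of -0.09 to 0.50, and AXL, a receptor kinase, by -0.35.

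**Figure D3:**
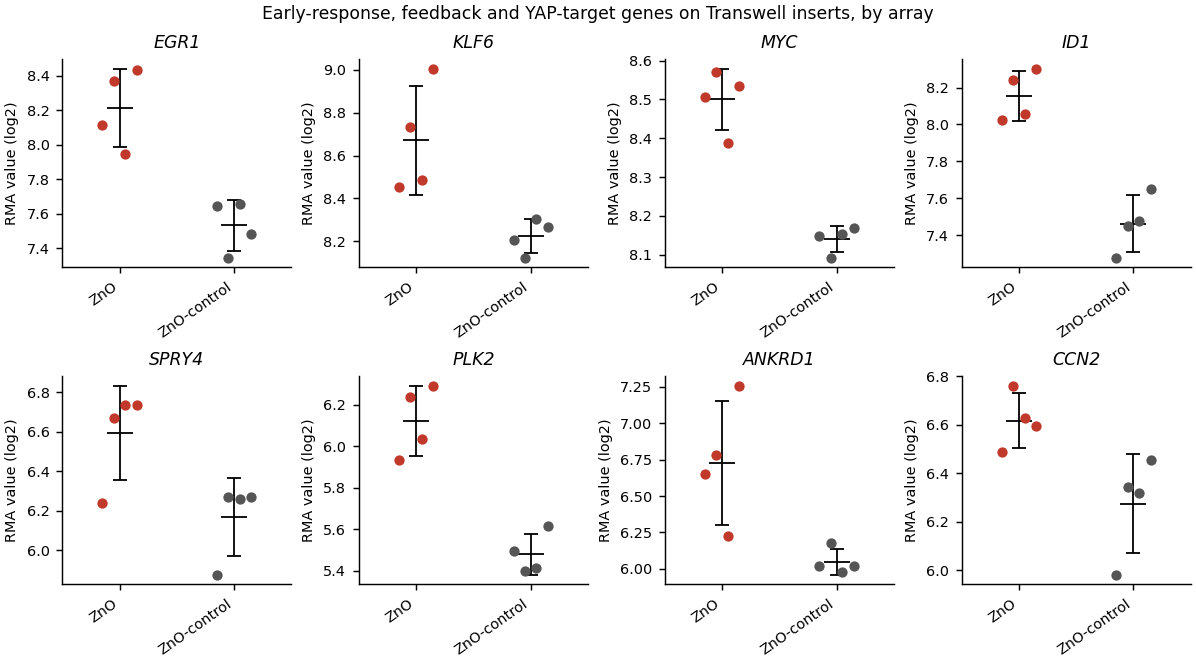
RMA value (log2) of 8 genes on each Transwell array, ZnO left of ZnO-control; points are arrays in replicate order, and bars give the mean and SD. EGR1, KLF6, MYC, ID1, PLK2, ANKRD1 and CCN2 have all ZnO arrays above all control arrays, whereas for SPRY4 the lowest ZnO array (6.24) lies below 3 control arrays (6.26 to 6.27).

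Genes of the oxidative stress factor NRF2 were above 0 in 20 of 26 measured members, with a small median of 0.09. By unadjusted p below 0.05, 5 were higher and 1 lower, against 3.28% and 3.31% of all genes. The lower member was AKR1B10, at -0.35 ± 0.12, with overlapping groups and both group means below the array medians. GCLM, the modifier subunit of the enzyme that limits glutathione synthesis, read 6.28, 6.31, 5.89 and 6.52 after ZnO and 6.07, 5.70, 5.71 and 5.77 in control medium. Its groups overlapped through ZnO replicate 3 and control replicate 1 (0.44 ± 0.17, adjusted p = 0.697). OSGIN1, an oxidative stress-induced growth inhibitor, differed by 0.31 ± 0.11 (0.19 without ZnO replicate 2) and SQSTM1, the autophagy receptor p62, by 0.26 ± 0.09. NFE2L2, which encodes NRF2, differed by 0.23 with groups that did not overlap. HMOX1, the haem oxygenase that many metals induce, read 8.70 to 8.89 after ZnO and 8.53 to 8.80 in control medium, with a difference of 0.15 ± 0.09 and an interval of -0.05 to 0.35. NQO1, a quinone reductase, had an interval of -0.08 to 0.27.

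Heat shock proteins and their co-chaperones, which are induced by misfolded protein, had 0 of 16 measured members at an unadjusted p below 0.05 in either direction. The median was 0.08, and 0.05 without ZnO replicate 2 or 0.13 without ZnO replicate 1, and 12 members were above 0. DNAJB1, a co-chaperone of HSP70, was the only member without overlap, at 9.42 to 9.63 after ZnO and 9.30 to 9.41 in control medium (0.16 ± 0.08). Of all genes, 2.31% had every ZnO array above every control array. For HSPB1, the small heat shock protein HSP27, the interval was -0.17 to 0.19, for HSPH1, an HSP70 exchange factor, -0.14 to 0.29, and for BAG3, a co-chaperone of selective autophagy, -0.11 to 0.33.

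The unfolded protein and integrated stress response was split around 0, with 13 of 25 measured members above it and a median of 0.01. PPP1R15A, which restores translation by directing dephosphorylation of eIF2α, was the 1 member at an unadjusted p below 0.05, at 7.65, 7.79, 7.76 and 8.04 after ZnO and 7.55, 7.41, 7.52 and 7.58 in control medium. All ZnO arrays were above the controls (0.30 ± 0.10, adjusted p = 0.688). ATF4, the response's central factor, also did not overlap, at 9.89 to 10.06 after ZnO and 9.76 to 9.87 in control medium, but by only 0.16 ± 0.09. For HSPA5, the chaperone BiP of the endoplasmic reticulum, the interval was -0.16 to 0.23. DDIT3, the death-linked factor CHOP, had a wide one, -0.16 to 0.91.

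Hypoxia-inducible and glycolytic genes ran in the other direction. Of 28 measured members 6 were above 0, the median was -0.10, and 5 were lower and 0 higher at an unadjusted p below 0.05, against 3.31% and 3.28% of all genes. In 0 members were all ZnO arrays below all controls, against 1.66% of all genes. NDRG1, a hypoxia-induced stress gene, read 7.59, 7.01, 7.51 and 6.90 after ZnO and 7.61, 7.70, 7.73 and 7.50 in control medium. ZnO replicates 2 and 4 were low, and replicates 1 and 3 lay within the range of the controls (-0.38 ± 0.14, adjusted p = 0.692). PDK1, a kinase that inhibits pyruvate dehydrogenase, read 9.49, 8.74, 9.42 and 8.61 after ZnO and 9.25, 9.46, 9.52 and 9.49 in control medium (-0.36 ± 0.16). PFKFB4, a regulator of glycolysis, read 6.24, 5.92, 6.45 and 6.05 after ZnO and 6.49, 6.37, 6.64 and 6.50 in control medium (-0.33 ± 0.13). In each of these genes the same ZnO arrays, replicates 2 and 4, were the lowest. The list's median was -0.18, -0.10, -0.16 and -0.05 without ZnO replicates 1, 2, 3 and 4, and the number of members above 0 was then 5, 10, 4 and 11. The PDK1 difference was -0.21 without ZnO replicate 4.

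ZnO replicates 2 and 4 were also the lowest ZnO arrays for IL1B, the inflammatory cytokine, at 4.58, 4.07, 4.56 and 3.54 after ZnO and 4.71, 4.63, 5.04 and 4.50 in control medium (-0.53 ± 0.21). The same held for ZG16, a lectin of the mucus layer, at 10.05, 9.35, 9.86 and 9.13 after ZnO and 9.81 to 10.05 in control medium (-0.35 ± 0.16), and for SLC11A2, the iron importer DMT1, at 10.41, 9.89, 10.28 and 9.41 after ZnO and 10.21 to 10.46 in control medium (-0.32 ± 0.16). They were the highest ZnO arrays for EGR1, KLF6, JUNB, ID1 and PLK2. For MT1G, by contrast, replicates 3 and 4 were highest. Without ZnO replicate 4 the differences were -0.32 for IL1B, -0.19 for ZG16 and -0.12 for SLC11A2. What set these arrays apart was not tested.

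No direction can be read for the differentiation genes. Of 29 enterocyte and brush border markers 7 were above 0 with a median of -0.03, but without ZnO replicate 4 there were 18 above 0 and the median was 0.03. In the fit of all arrays of the set 0 passed an unadjusted p below 0.05 in either direction. SLC15A1, the apical peptide transporter, had a difference of -0.20 ± 0.12, with ZnO replicate 4 at 8.43 and the other ZnO arrays at 8.81 to 8.82. It was -0.10 without that array and -0.11 without control replicate 4. ALPI, intestinal alkaline phosphatase, had an interval of -0.38 to 0.07 and LCT, lactase, of -0.40 to 0.07. Among the epithelial markers CDX2, the intestinal homeobox factor, read 8.31, 7.81, 7.84 and 7.89 after ZnO and 8.18, 8.32, 8.26 and 8.21 in control medium. In 3 of the 4 ZnO arrays it was below all controls (-0.28 ± 0.11, unadjusted p = 0.019). Cell junction genes had a median of 0.02 with 0 of 22 at an unadjusted p below 0.05, and TJP1, the tight junction scaffold ZO-1, differed by 0.15 ± 0.09 with groups that did not overlap. Mucus and secretory markers had a median of 0.02, with 0 of 27 past that p.

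Of 20 drug and xenobiotic metabolism genes 8 were above 0, with a median of -0.06. At an unadjusted p below 0.05, 1 was higher and 2 lower, against 3.28% and 3.31% of all genes. In 2 members every ZnO array lay below every control array, against 1.66% of all genes. CYP1A1, the aryl hydrocarbon receptor's main target, read 7.23, 7.07, 6.59 and 7.01 after ZnO and 7.50, 7.46, 7.30 and 7.23 in control medium. Every ZnO array was below every control, replicate 1 only just (-0.40 ± 0.14, adjusted p = 0.692). The 10 targets of that receptor were not lower as a list, with 6 above 0 and a median of 0.08. CYP3A5, a drug-oxidising cytochrome, differed by 0.31 ± 0.14, and by 0.19 without ZnO replicate 3.

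Cholesterol synthesis and uptake genes were above 0 in 4 of 15 members, with a median of -0.04 and 1 lower at an unadjusted p below 0.05. Without control replicate 3 there were 7 above 0 and the median was -0.00. The lower gene was FDPS, farnesyl diphosphate synthase, at 7.11 to 7.41 after ZnO and 7.45 to 7.53 in control medium (-0.22 ± 0.08). Fatty acid oxidation and PPAR targets had 7 of 19 above 0 and a median of -0.03, with 1 lower at that p, ECI2, an enoyl-CoA isomerase, at -0.20 ± 0.09. Among 15 iron and haem genes 2 were lower and 0 higher. ACO1, the iron-sensing aconitase IRP1, read 9.48, 9.35, 9.40 and 9.21 after ZnO and 9.52 to 9.59 in control medium (-0.19 ± 0.08), without overlap, and HAMP, the iron hormone hepcidin, differed by -0.25 ± 0.10. The nuclear-encoded respiratory chain had a median of -0.02, with 1 of 24 higher and 0 lower.

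Of 21 p53 targets 3 were higher and 1 lower at an unadjusted p below 0.05, with a median of 0.07. PLK2, a kinase of the stress response, read 5.93, 6.24, 6.03 and 6.29 after ZnO and 5.49, 5.40, 5.41 and 5.61 in control medium. The groups were apart (0.64 ± 0.16, adjusted p = 0.528). SESN1, a stress-induced regulator of mTORC1, went the other way at -0.22 ± 0.08, also without overlap. Of 33 cell cycle genes 0 were past that p in either direction, and the median was -0.01.

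Inflammatory genes read both higher and lower. Of 24 NF-kB and inflammatory genes 4 were higher and 2 lower at an unadjusted p below 0.05, with a median of 0.04. IL18, an epithelial cytokine, read 8.67, 9.13, 8.95 and 9.23 after ZnO and 8.68, 8.57, 8.64 and 8.53 in control medium, so that ZnO replicate 1 alone lay among the controls (0.39 ± 0.12). LIF, a cytokine of the IL-6 family, differed by 0.50 ± 0.17 and CXCL3, a neutrophil attractant, by 0.61 ± 0.22 (0.38 without control replicate 1), both with overlap. Interferon-stimulated genes had 1 of 22 higher and 2 lower, with a median of 0.02. Wnt targets and stem cell markers had 2 of 16 higher, AXIN2 and LGR5, and a median of 0.11. AXIN2, a feedback inhibitor of Wnt signalling, read 7.53 to 7.74 after ZnO and 7.22 to 7.37 in control medium (0.32 ± 0.11), and LGR5, the stem cell receptor, overlapped (0.48 ± 0.20, and 0.31 without ZnO replicate 4). The median was then 0.06. Extracellular matrix and adhesion genes had 1 of 27 lower, ITGA5, the fibronectin receptor subunit, at -0.31 ± 0.14 (-0.20 without ZnO replicate 4), and a median of -0.01.

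Where a list's median lay near 0 it often had no stable direction. In 12 of 27 lists the median took the other sign when some single array was left out, and ran from -0.08 to 0.09. They were the enterocyte, epithelial, cell junction, mucus, cell cycle, extracellular matrix, interferon, NF-kB, unfolded protein, iron, respiratory chain and zinc importer lists. The p53 median was 0.02 without ZnO replicate 1 and 0.01 without ZnO replicate 4. When each array was left out in turn, metallothioneins kept a median of 0.34 to 0.50 and immediate early genes 0.14 to 0.25. MAP kinase feedback genes kept 0.17 to 0.24, and YAP and mechanosensitive genes 0.11 to 0.16. Counts at an unadjusted p below 0.05 in every list are to be read against 3.28% of all genes higher and 3.31% lower.

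**Figure D4:**
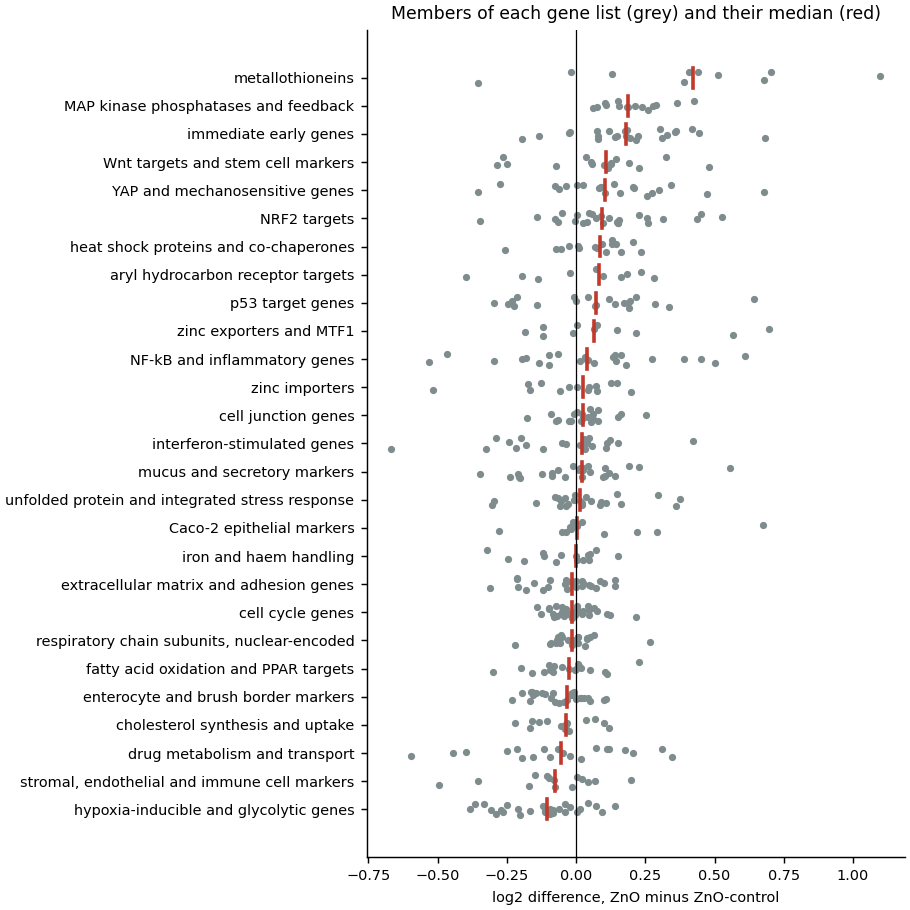
Log2 difference (ZnO minus ZnO-control, Transwell inserts, x axis) of every measured member of 27 gene lists; each grey point is a gene and the red bar is the list's median. Metallothioneins have the highest median (0.42) and hypoxia-inducible and glycolytic genes the lowest (-0.10).

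The TiO2 set offered a second exposure on the same inserts, with separate control arrays and at another dose. TiO2 gave 0 genes past an adjusted p of 0.05 (0%), with 2.28% higher and 2.63% lower at an unadjusted p below 0.05. The difference between the ZnO and TiO2 responses also gave 0 genes in limma, with 561 higher (2.51%) and 573 lower (2.56%) at an unadjusted p below 0.05, and 0 with the intensity trend. Metallothioneins had a median of 0.42 for ZnO and -0.20 for TiO2, and 3 of 10 were above 0 after TiO2. MT2A had the second smallest p for the difference of responses, 0.51 ± 0.11 for ZnO against -0.40 ± 0.11 for TiO2, a difference of 0.91 ± 0.16 (adjusted p = 0.343). For SLC30A1 the responses were 0.57 ± 0.09 to ZnO and -0.01 ± 0.10 to TiO2, and for SLC30A2 0.70 ± 0.11 to ZnO and -0.09 ± 0.12 to TiO2. Immediate early genes were above 0 in 20 of 24 members for ZnO and 7 of 24 for TiO2. None of these differences of response passed after adjustment.

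Levels in the media themselves differed between the sets. MT1X read 10.69 to 11.08 in the ZnO-control arrays and 8.53 to 8.78 in the TiO2-control arrays, and MT1G read 5.74 to 6.37 in ZnO-control and 3.13 to 3.65 in TiO2-control. MT2A averaged 7.58 in ZnO-control and 6.40 in TiO2-control, and SLC30A2 averaged 6.81 in ZnO-control and 5.46 in TiO2-control. Each medium was used in 1 set of arrays, so medium and set cannot be told apart. The metallothionein differences after ZnO therefore start from controls that were already at a higher level than those of the other set.

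In the chip, 80 µg/mL ZnO was given under flow for the same 6 h, so dose and flow both differed from the inserts. There 61 genes passed (0.272%) in a fit of all 31 arrays. At an unadjusted p below 0.05, 5.40% of all genes were higher and 4.01% lower. For the inserts the same fit gave 0 genes past adjustment, with 386 higher and 449 lower at that unadjusted p. That fit uses 1 estimate of the spread for both systems. The ZnO response on Transwell inserts differed from that in the chip in 1 gene (0.00447%), MT1B, at 0.44 on the inserts and 5.17 in the chip, a difference of -4.73 (adjusted p = 0.027). On the inserts MT1B read below the array medians in both groups. At an unadjusted p below 0.05 the difference of responses was higher on the inserts in 579 genes (2.59%) and lower in 766 (3.42%). The median of metallothioneins was 0.42 on the inserts and 1.45 in the chip, and that of heat shock proteins 0.08 on the inserts and 0.63 in the chip. MT1M differed by 0.68 on the inserts and 4.25 in the chip, and HMOX1 by 0.15 on the inserts and 0.92 in the chip (adjusted p of the differences 0.53 and 0.69). MT1X, MT2A and EGR1 had responses of 0.39, 0.51 and 0.68 on the inserts and 0.41, 0.24 and 0.45 in the chip. SLC39A10 differed by -0.52 on the inserts and -0.07 in the chip (unadjusted p of the difference 0.025, adjusted 0.83). MYC differed by 0.36 on the inserts and -0.33 in the chip (limma unadjusted p of the difference 0.0024, adjusted 0.58).

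**Figure D5:**
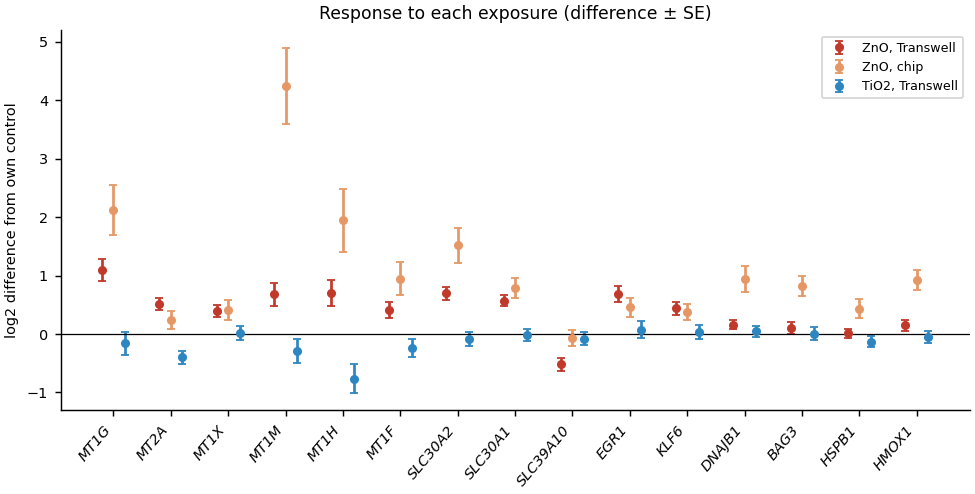
Log2 difference of exposed from own control arrays (y axis, point ± SE) for 15 genes, for ZnO on Transwell inserts, ZnO in the chip and TiO2 on Transwell inserts. MT1M stands at 0.68 on the inserts and 4.25 in the chip, and HMOX1 at 0.15 on the inserts and 0.92 in the chip. MT1X stands at 0.39 on the inserts and 0.41 in the chip. The doses differ between the systems, and only the chip had flow.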

How the data were processed

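Total RNA (100 ng per sample) was hybridised to an Affymetrix whole-transcript array, per the labels' protocols. The authors deposited log2 values, and the submitters' processing notes name RMA as the normalisation. Its version, the array annotation and any build were not given in the sources used here. This step gives every array the same distribution of probe intensities before they are combined into probe sets, so a shift of all genes together would not be seen. The combined values still differed slightly in distribution between arrays. The table held 53617 probe sets; 23871 named 1 gene, 1842 several and 27904 none. Symbols were updated through RefSeq identifiers, and for 632 genes with several probe sets the brightest was kept, leaving 22395 genes. The test was limma 3.58.1 under R 4.3.3, with 1 mean per group over the 15 Transwell arrays (11 residual degrees of freedom, prior 3.58), or over all 31 arrays for the chip (23 residual), and adjusted over all genes by the Benjamini-Hochberg method. The fit was tested on simulated data. The number of arrays limits precision, and detection above background was not given, so a gene below the array medians is not shown to be above background. Named genes were the 12 higher and 8 lower with the smallest p among genes whose mean lay above the array medians in at least 1 of the 2 groups, every metallothionein, up to 4 members of each list with the smallest p, and for response differences the 5 with the smallest p. Other list members named for their role were chosen after their values were seen. The members and the 27 lists were chosen with earlier results of these data known. Some genes are on several lists. The alternatives tried were fewer or more arrays, an intensity-trend or robust prior, array weights, a replicate block, a filter on dim genes, the mean of probe sets, a second quantile normalisation, every probe set, and leaving out each array.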

Additional observations from a re-analysis of the deposited data

Results flagged for a closer look

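In the 2 groups of 4 arrays, 268 groups of values (134 named genes) were examined for a single array that lies far from the other 3, and 14 were found. Chance flags about 1 in 20 such groups, so the number is close to that rate and the values are given as a description only. Among the leading genes GPRC5A read 10.30 in ZnO replicate 2, against 10.09 to 10.10 in the other ZnO arrays, and PRDM11 read 4.84 in ZnO replicate 1, against 4.62 to 4.65. SPRY4, the receptor tyrosine kinase feedback inhibitor, was low in replicate 1 of both groups: 6.24 in ZnO, against 6.67 to 6.74 in the other ZnO arrays, and 5.87 in control, against 6.26 to 6.27 in the other controls. DUSP1, a MAP kinase phosphatase, read 8.62 in control replicate 3, against 8.25 to 8.30.

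ZnO replicate 1 also stood apart for CDX2 (8.31, others 7.81 to 7.89) and MDM2, the p53 antagonist (8.42, others 8.59 to 8.63). ZnO replicate 3 stood apart for CXCL3 (3.91, others 4.45 to 4.55), ATOH1, a secretory lineage factor (2.66, others 4.01 to 4.13), and TYMS, thymidylate synthase (8.47, others 8.53 to 8.55). ZnO replicate 4 stood apart for SLC15A1, at 8.43 with the others at 8.81 to 8.82. Control replicate 1 stood apart for SLC7A5, an amino acid transporter (10.30, others 10.10 to 10.13), and CD14, a lipopolysaccharide co-receptor (5.42, others 5.85 to 5.91), and control replicate 3 for IFI35, an interferon-induced gene (7.11, others 7.22 to 7.23).

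The ZnO response of MT1B differed between the culture systems by the test of that difference, Transwell inserts minus chip, at -4.73 (limma adjusted p = 0.027).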

How the results depend on the processing

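The count of genes past an adjusted p of 0.05 for ZnO against ZnO-control, 0 in the planned fit, was 8 with the intensity trend, 1 with array weights (RN5S513) and 1 with the replicate block (AKR1C4). It was 6 with the intensity trend and dim genes left out, an alternative chosen after seeing the data. Leaving out 1 array gave 0 to 1. With the intensity trend, also chosen after seeing the data, it was 7, 0, 4 and 2 without ZnO replicates 1, 2, 3 and 4, and 3, 4, 2 and 4 without control replicates 1, 2, 3 and 4. It was 0 with the 8 arrays alone, all 31 arrays, a robust prior, dim genes left out, the mean of probe sets, a second quantile normalisation, and every probe set. At an unadjusted p below 0.05, 735 higher and 741 lower became 386 and 449 with all 31 arrays, 611 and 461 with dim genes left out, and 691 and 453 with the intensity trend as well; in both filtered fits fewer genes were tested. Leaving out 1 array gave 558 to 877 higher and 616 to 910 lower. A second quantile normalisation gave 556 higher and 920 lower, 37.7% higher against 49.8% in the planned fit, and 60.4% were higher with the intensity trend and dim genes left out. Same-numbered ZnO and ZnO-control arrays did not deviate together (correlations -0.07 to 0.02), so the numbers were not treated as pairs, and the replicate block gave 689 higher and 733 lower. The response differences stayed at 0 genes (ZnO minus TiO2) and 1 gene (inserts minus chip) under each of their alternatives. Of 3448 values of the 134 named genes under alternatives, 3398 kept direction and side of the threshold, 38 newly passed, and 12 (MT1E and MT3) had the other sign without passing. Of 702 list medians 680 moved by less than 1 SD, but 68 took the other sign, and 34 counts of members above 0 moved by over 1.5 times. The number of arrays, 4 a group, limits the precision of every value.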
